A study of Mus musculus with 21 samples.

Results

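This account covers 7 genes for subunits of the GABA-A receptor, chosen by name with earlier results of these data known. The genes are the α subunits Gabra2, Gabra3, Gabra4 and Gabra5, the β subunits Gabrb1 and Gabrb2, and the δ subunit Gabrd. They are 7 of the 24984 genes in a table of nascent RNA counts from mouse cortical cultures, and 12 further subunit genes of the receptor were in the same table. In BrU-seq, the assay used, cells take up bromouridine, and the RNA they make during the labelling is isolated and sequenced. All cultures came from the cortex of CD1 mice at day 17 in vitro, were preincubated for 30 min with DMSO or with 25 µM MM401, and were labelled with 2 mM bromouridine for the last 30 min. The DMSO groups then received water for 4 h or 40 µM bicuculline for 1 h or 4 h. The MM401 groups received water for 1 h or 4 h, or 40 µM bicuculline for 1 h or 4 h. MM401 is a peptidomimetic that blocks the binding of the histone H3 lysine 4 methyltransferase MLL1 to WDR5. Each of the 7 groups had 3 biological replicates of mixed sex. A DMSO group with water at 1 h was not analysed here, so both DMSO bicuculline groups were compared with water at 4 h.

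The GABA-A receptor is a ring of subunits around a chloride channel, and its opening by GABA is the main source of fast inhibition in the cortex. Most receptors combine α and β subunits with either a γ or a δ subunit, and GABA binds where an α and a β subunit meet. Bicuculline competes with GABA for that site, so the genes described here encode parts of the protein that the treatment blocks. Receptors with α2 sit mainly at synapses, including those on the axon initial segment. Receptors with α4 and δ, and many with α5, lie outside synapses and carry tonic inhibition. The genes of most subunits lie in clusters with their neighbours on a few chromosomes.

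In mouse build mm10 the table placed Gabra2 at chr5:70958391-71095849 on the minus strand, Gabra4 at chr5:71569733-71658308 on the minus strand and Gabrb1 at chr5:71700015-72137244 on the plus strand. Gabra5 lay at chr7:57407668-57510059 (minus), Gabrb2 at chr11:42419746-42632591 (plus), Gabra3 at chrX:72432675-72656919 (minus) and Gabrd at chr4:155384978-155398069 (minus). The starts of 5 of the 7 genes were 1 base lower in the table than in RefSeq. The counted feature was the whole gene span, exons and introns together, of 13.1 kb for Gabrd and 88.6 to 437 kb for the other members. Gabra5 shared part of its span with the opposite-strand gene Gm9962, which had 81 to 251 counts a library. The RefSeq model of Gabrb1 began at base 71657921, inside Gabra4 and before the span counted here, and that of Gabra5 ran 80957 bases beyond its counted span. No promoter window for Gabrd is shown.

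RefSeq promoter windows (GRCm38.p6) were found for 6 of the 7 members. The windows of Gabra2 and Gabra3 are shown because these α subunit genes gave the highest and lowest bicuculline values at 4 h in DMSO, as described further on. Each is the 250 bases before the start, 5′ to 3′ on the strand of the gene, at chr5:71095850-71096099 for Gabra2 and chrX:72656920-72657169 for Gabra3. The capitals mark, in Gabra2, the core TCGTG that NPAS4 and ARNT recognise, 94 bases before the start. In Gabra3 they mark TTTATA, the TATA box letters TATAAA read on the opposite strand, 123 bases before the start.
Gabra2: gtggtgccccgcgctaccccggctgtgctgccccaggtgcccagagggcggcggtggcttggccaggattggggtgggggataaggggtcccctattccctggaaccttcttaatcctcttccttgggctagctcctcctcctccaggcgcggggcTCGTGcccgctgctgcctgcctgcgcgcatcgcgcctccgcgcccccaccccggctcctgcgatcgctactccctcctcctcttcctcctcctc
Gabra3: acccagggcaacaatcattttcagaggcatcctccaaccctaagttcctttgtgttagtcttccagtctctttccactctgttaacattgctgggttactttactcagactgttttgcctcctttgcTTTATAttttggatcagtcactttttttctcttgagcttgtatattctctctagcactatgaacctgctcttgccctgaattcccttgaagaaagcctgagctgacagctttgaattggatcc
The Gabra2 window was 70% G and C and the Gabra3 window 42.4%. Searched on both strands of the window nearest to each table start, none of the 6 members held the cyclic AMP response element TGACGTCA, its core TGACG, which lies inside it, or the AP-1 letters TGANTCA. Over all 32851 promoters in the RefSeq table, windows of the same length held these in 1.55%, 17.8% and 6.75%. The EGR letters GCGNGGGCG (4.7% of all promoters) were in the Gabrb2 window, 232 bases before its start. TCGTG was in 13.3% of all promoters, in the window of Gabra2 and in both other listed windows of Gabrb2, 247 and 202 bases before their starts. The Gabrb2 window nearest to the table start, 693 bases from it, did not hold it. TATAAA was in 12.4% of all promoters and in the windows of Gabra3 and Gabrb2, in Gabrb2 30 bases before the start. A match of these letters is a description of the sequence and not evidence of a bound factor.

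Totals ran from 49886348 to 87939384 counts in 20 libraries. The remaining one, MM401 with water at 4 h, replicate 3, held 316741 counts and was left out, so that group had 2 libraries. The common biological coefficient of variation was 8.77%. Fos and Npas4, immediate early genes of neuronal activity, rose 6.34-fold and 21.6-fold with bicuculline at 1 h in DMSO. DMSO with water at 4 h, replicate 1, stood apart in its group: 62.2% of its counts lay in genes of at least 100 kb, against 58.0% and 56.9% in replicates 2 and 3. In the other groups that share was 61.0 to 62.5% (DMSO, bicuculline 1 h), 62.3 to 62.4% (DMSO, bicuculline 4 h), 58.7 to 61.3% (MM401, water 1 h), 61.3 to 61.4% (MM401, water 4 h), 60.1 to 63.5% (MM401, bicuculline 1 h) and 58.4 to 60.9% (MM401, bicuculline 4 h). Counts of calls against that water group are given with and without this library for the members and the gene lists. Counts of called cell type markers, levels, sums and shares are given with it only. Neuronal markers were high (summed level of 5 genes, 4523 to 7194 CPM), the 8 GABAergic markers summed to 345 to 705 CPM with 1 of them, Dlx1, at 0 in every library, and the 3 endothelial markers summed to at most 3.01 CPM.

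Levels are given as CPM, the count of a gene scaled to the TMM-adjusted total of its library, and levels are compared between genes only as CPM per kb of gene span. Per kb, averaged over the 20 libraries, Gabra2 was the highest at 4.06 CPM per kb, followed by Gabrb2 at 3.04, Gabrb1 at 2.87, Gabra4 at 2.35 and Gabra5 at 1.22. Gabra3 (0.290 CPM per kb) and Gabrd (0.150 CPM per kb) were far lower. Gabra2 lay above 96.3% of the tested genes on this scale and Gabrd above 25.6%. The order of Gabrb2 and Gabrb1 depended on the group: Gabrb1 was the higher in DMSO with water (2.69 ± 0.44 against 2.31 ± 0.31 CPM per kb, SD, n = 3) and Gabrb2 in DMSO with bicuculline at 4 h (4.23 ± 0.19 against 3.44 ± 0.09). Gabrd had only 64 to 185 counts a library, so its values carry a large counting error. The other 6 members had between 2838 and 118607 counts.

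Gabra2, the α2 subunit gene, had CPM of 478, 356 and 349.5 in replicates 1 to 3 of DMSO with water, 445, 409.7 and 499.9 with bicuculline at 1 h, and 1027, 919 and 887 at 4 h. Under MM401 it had 397, 328 and 357 with water at 1 h, and 428 and 415 when water was given for 4 h. Its bicuculline libraries there had 516, 547 and 439.7 at 1 h and 852, 819.6 and 696 at 4 h. All 6 libraries with bicuculline at 4 h were above all 14 others, and the 3 of DMSO were above the 3 of MM401. The 5 other groups each overlapped with their neighbours in the order of their means, which ran from 361 CPM (MM401, water 1 h) to 501 CPM (MM401, bicuculline 1 h).

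Gabra4, the α4 subunit gene, had CPM of 197, 151 and 134 in DMSO with water, 185, 185 and 215 with bicuculline at 1 h, and 315, 304 and 287 at 4 h. Under MM401 the values were 169.5, 149 and 150.5 with water at 1 h, and 183 and 177 when water was given for 4 h. With MM401 and bicuculline they were 234, 239.7 and 175 at 1 h, then 256, 247 and 210.2 at 4 h. DMSO with bicuculline at 4 h was above every other library, and both bicuculline groups of MM401 overlapped each other.

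Gabra5, the α5 subunit gene, stayed within a narrow band. Its CPM were 132, 103 and 94.4 in DMSO with water, 129.8, 135 and 141 with bicuculline at 1 h, and 138, 137 and 133 at 4 h. Under MM401 they were 119, 103 and 102 with water at 1 h, and 127 and 132 when water was given for 4 h. Bicuculline after MM401 gave 139.7, 145 and 120.3 at 1 h and 121, 130.5 and 120.4 at 4 h. The 5 lowest libraries were replicates 2 and 3 of DMSO with water and all 3 of MM401 with water at 1 h.

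Gabra3, the α3 subunit gene on chromosome X, had CPM of 83.0, 65.7 and 58.9 in DMSO with water, 65.2, 59.4 and 61.3 with bicuculline at 1 h, and 65.7, 69.0 and 66.2 at 4 h. Under MM401 it had 69.2, 57.6 and 57.2 with water at 1 h, and 78.6 and 74.5 when water was given for 4 h. Its bicuculline libraries there had 62.0, 66.5 and 57.1 at 1 h and 63.3, 62.1 and 57.5 at 4 h. The highest value was that of the DMSO water library that stood apart, and both MM401 water libraries at 4 h came next.

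Gabrb2, the β2 subunit gene, had CPM of 562, 485 and 429 in DMSO with water, 635, 597 and 609 with bicuculline at 1 h, and 931, 915 and 853 at 4 h. Under MM401 the values were 530.4, 470.1 and 488 with water at 1 h, and 570.4 and 557 when water was given for 4 h. With MM401 and bicuculline they were 598, 669 and 577 at 1 h, then 830.4, 871 and 783 at 4 h. The groups formed 3 steps, water below bicuculline at 1 h below bicuculline at 4 h, and the pretreatments overlapped at each step.

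Gabrb1, the β1 subunit gene, had CPM of 1391, 1101 and 1029.7 in DMSO with water, 1211, 1181 and 1275 with bicuculline at 1 h, and 1505, 1545 and 1465 at 4 h. Under MM401 it had 1158, 984 and 994 with water at 1 h, and 1309.5 and 1277 when water was given for 4 h. Bicuculline after MM401 gave 1283, 1339 and 1148 at 1 h and 1361, 1359.8 and 1178 at 4 h. DMSO with bicuculline at 4 h was above every other library, and the other groups overlapped with their neighbours in the order.

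Gabrd, the δ subunit gene, had CPM of 1.81, 2.17 and 2.15 in DMSO with water, 1.54, 1.45 and 1.26 with bicuculline at 1 h, and 1.95, 2.39 and 2.26 at 4 h. Under MM401 they were 2.28, 2.18 and 2.31 with water at 1 h, and 1.79 and 2.11 when water was given for 4 h. Its bicuculline libraries there had 1.90, 1.72 and 1.32 at 1 h and 2.42, 2.52 and 1.78 at 4 h. Its lowest group was DMSO with bicuculline at 1 h.

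**Figure D1:**
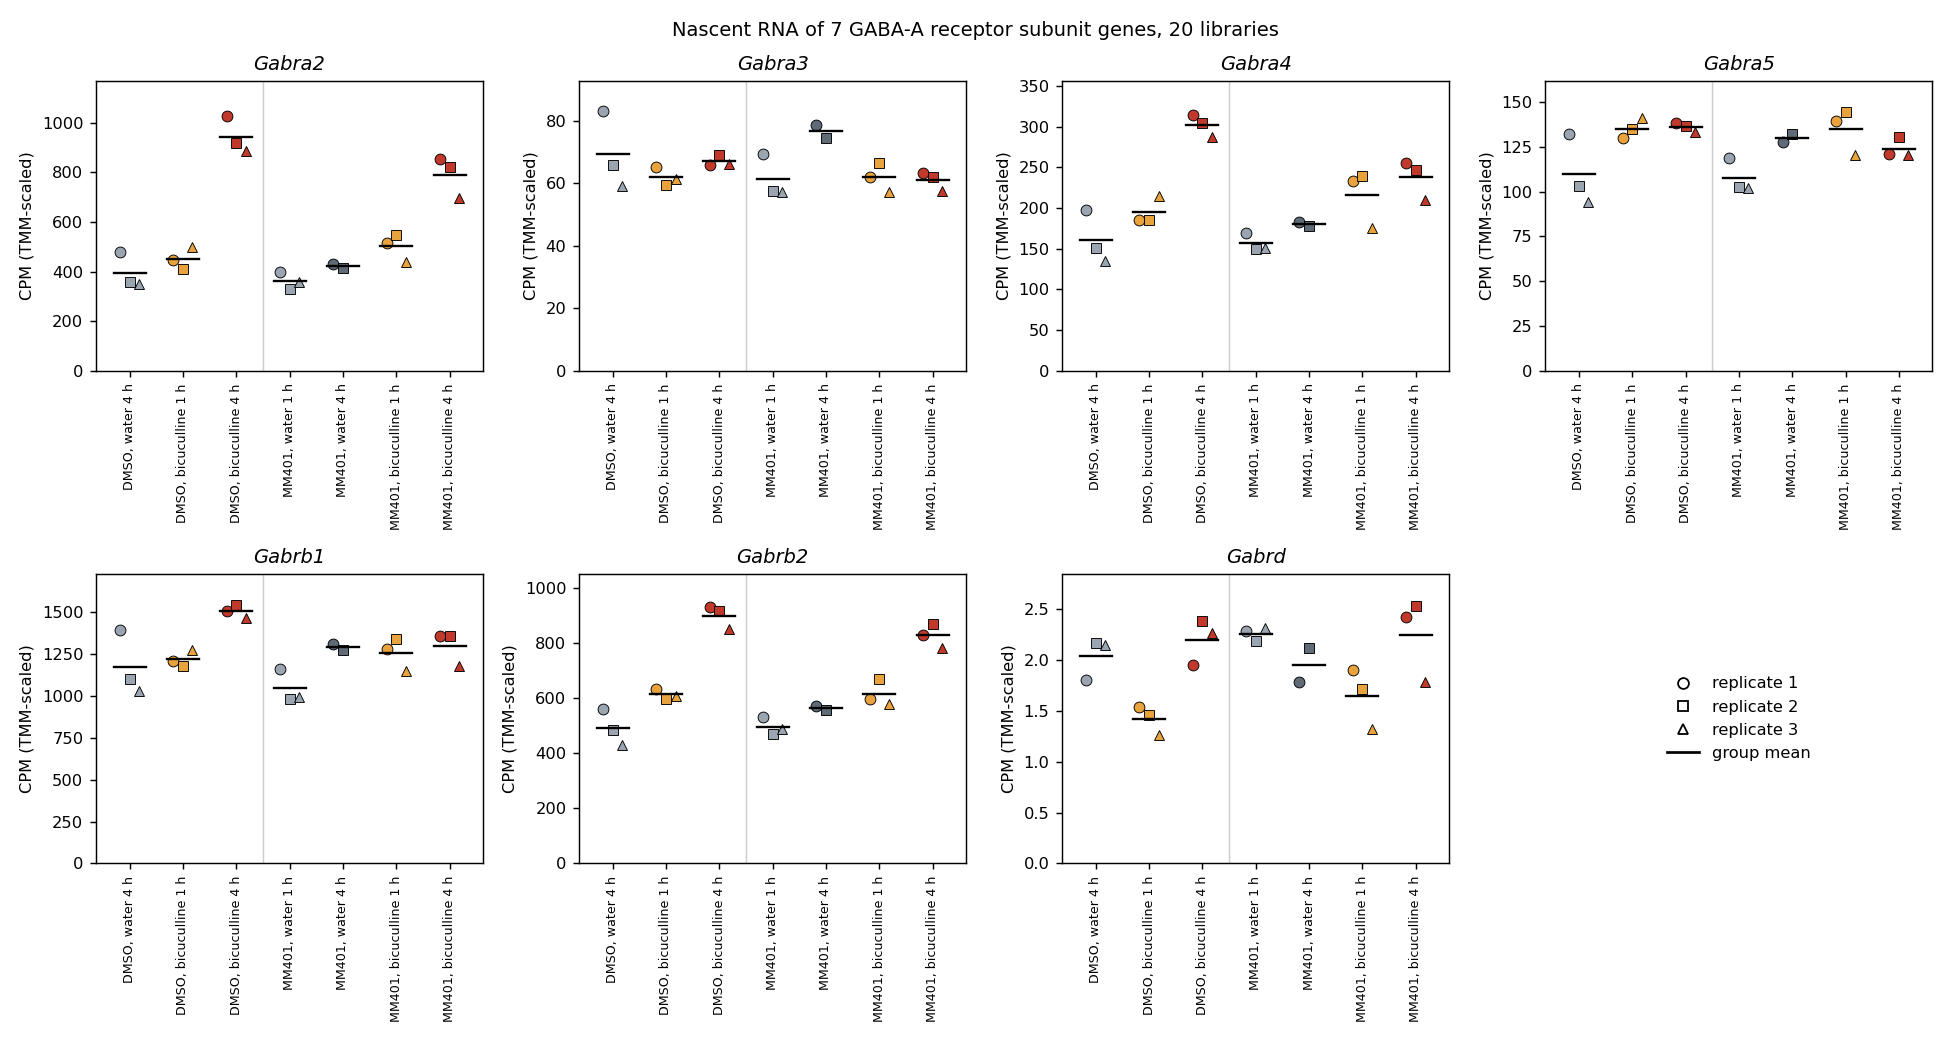
CPM of each of the 7 subunit genes (vertical axes, from 0) in the 20 libraries by group, 1 point a library with the replicate shown by its shape and the group mean as a bar. Group means of Gabra2, Gabrb2 and Gabra4 are highest with bicuculline at 4 h in each pretreatment. For Gabra4 under MM401 the 4 h and 1 h bicuculline libraries overlap. Gabra3 lies between 57.1 and 83.0 in all libraries, and Gabrd is lowest with bicuculline at 1 h in DMSO.

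After 4 h of bicuculline in DMSO, nascent RNA of 5 of the 7 subunit genes was higher than in water and none was lower. Gabra2 rose 2.39-fold, from 395 ± 72.1 to 944 ± 73.5 CPM (SD, n = 3 each). Gabra4 rose 1.88-fold and Gabrb2 1.83-fold, and Gabrb1 and Gabra5 rose 1.28-fold and 1.24-fold. Gabra3 and Gabrd did not pass the test. Of all 16959 genes tested, 49.2% were called in this comparison, 23.7% higher and 25.5% lower, where called means an adjusted p under 0.05 by edgeR's quasi-likelihood test with Benjamini-Hochberg adjustment over all tested genes. The median log2 fold change was 0.36 over the 7 members and -0.02 over all genes. In these bulk libraries a change in the number of cells of a type and a change in RNA per cell cannot be told apart.

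In this 4 h comparison the α2 gene Gabra2 had a log2 fold change of 1.26 ± 0.12 (SE, edgeR adjusted p = 1.7e-08), above 97.9% of the tested genes. For Gabra4 it was 0.91 ± 0.13 (adjusted p = 1.28e-05) and for Gabrb2 0.87 ± 0.09 (adjusted p = 2.48e-08). In these 3 genes and in Gabrb1 and Gabra5 every bicuculline library was above every water library, which held for 52.5% of all tested genes in either direction. Gabrb1 gave 0.36 ± 0.10 (adjusted p = 0.00495) and Gabra5 0.31 ± 0.09 (adjusted p = 0.00903). Gabra3 gave -0.05, with a 95% interval of -0.24 to 0.15, and Gabrd 0.10, with an interval of -0.22 to 0.42. Without the water library that stood apart the same 5 genes were called (48.2% of all genes called), with Gabra2 at 1.42, Gabra4 at 1.08 and Gabrb2 at 0.98.

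The smaller changes at 4 h depended on the setting. Without DMSO water replicate 3 neither Gabrb1 (0.24, edgeR adjusted p = 0.0649) nor Gabra5 (0.18, adjusted p = 0.113) was called, and Gabra5 was also lost without water replicate 2 (0.25, adjusted p = 0.0749). With a correction for gene length, Gabra2 stayed at 1.06, Gabra4 at 0.75 and Gabrb2 at 0.65, all called, while Gabrb1 (0.11) and Gabra5 (0.14) were not called (nor were they with plain library totals, at 0.09 and 0.05, or in a fit of only the groups compared, at 0.34 and 0.29) and Gabra3 was called lower at -0.26 (adjusted p = 0.00374). With plain library totals in place of TMM, which moved the median of all genes to -0.30, Gabra2 was 1.00, Gabra4 0.65 and Gabrb2 0.60, and Gabra3 was called lower at -0.31. With all 21 libraries Gabrb1 was not called (0.34, adjusted p = 0.0522).

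After 1 h of bicuculline in DMSO, 2 of the subunit genes were called higher and 1 lower. Against water at 4 h, Gabrb2 rose 1.25-fold (log2 fold change 0.32 ± 0.09 SE, edgeR adjusted p = 0.00416) and Gabra5 1.23-fold (0.30 ± 0.09, adjusted p = 0.0127). Gabrd fell, to 1.42 ± 0.14 CPM from 2.04 ± 0.21 (SD, n = 3 each), a log2 fold change of -0.53 ± 0.16 (adjusted p = 0.0103). These 3 calls of 7 compare with 44.6% of all tested genes, 3396 of 16959 higher and 24.5% lower. Gabra2 (0.19, 95% interval -0.05 to 0.43), Gabra4 (0.28, 0.01 to 0.55), Gabrb1 (0.06, -0.15 to 0.27) and Gabra3 (-0.16, -0.36 to 0.04) were not called. Gabrb2 and Gabrd had no overlap between the groups, as did 47.4% of all tested genes, and Gabra5 overlapped through 1 water library.

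At 1 h the calls changed with the libraries and with the settings. Without DMSO water replicate 1, 4 genes were called higher and 1 lower (46.5% of all genes called): Gabra2 (0.35, edgeR adjusted p = 0.00828) and Gabra4 (0.45, adjusted p = 0.00368) were added. Gabra5 was lost without water replicate 2 (0.28, adjusted p = 0.0513) or 3 (0.22, adjusted p = 0.0705), and Gabrd without water replicate 2 (-0.45, adjusted p = 0.0551) or bicuculline replicate 3 (-0.44, adjusted p = 0.0556). Without water replicate 3 Gabra3 was called lower (-0.24, adjusted p = 0.0412). The length correction ended all 3 calls (Gabrb2 0.11, Gabra5 0.16, Gabrd -0.37) and called Gabra3 (-0.36) and Gabrb1 (-0.19) lower. Plain library totals ended that of Gabra5 (0.12) and called Gabra3 lower (-0.34), and the fit with all 21 libraries ended that of Gabrb2 (0.34). DESeq2 called Gabra4 higher (0.32, adjusted p = 0.038), as did an edgeR fit with the replicate number as a block.

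Under MM401, where water at 1 h gave a control of the same time, bicuculline at 1 h raised 5 subunit genes and lowered 1. Gabra2 rose 1.39-fold, from 361 ± 34.8 to 501 ± 55.4 CPM (SD, n = 3 each), and Gabra4 1.38-fold, from 156 ± 11.3 to 216 ± 35.8 CPM. Gabra5, Gabrb2 and Gabrb1 rose 1.25-fold, 1.24-fold and 1.20-fold, and Gabrd fell from 2.26 ± 0.07 to 1.64 ± 0.30 CPM. The 6 calls of 7 compare with 39.9% of all tested genes, 18.1% higher and 21.8% lower. The groups did not overlap in 5 of the 6, all but Gabrb1, as in 51.1% of all tested genes, and the median log2 fold change was 0.31 over the members and -0.00178 over all genes. Log2 fold changes were 0.47 ± 0.12 for Gabra2 (SE, edgeR adjusted p = 0.00243), 0.47 ± 0.13 for Gabra4 (adjusted p = 0.00716), 0.32 ± 0.09 for Gabra5 (adjusted p = 0.00886), 0.31 ± 0.09 for Gabrb2 (adjusted p = 0.00581), 0.27 ± 0.10 for Gabrb1 (adjusted p = 0.0383) and -0.47 ± 0.16 for Gabrd (adjusted p = 0.0235). Gabra3 gave 0.01, with a 95% interval of -0.19 to 0.21.

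Of these calls at 1 h under MM401, those of Gabra2, Gabra4 and Gabrb2 held without each library in turn. Gabrb1 was lost without bicuculline replicate 1 (0.25), bicuculline replicate 2 (0.22), water replicate 2 (0.23) or water replicate 3 (0.24). Gabrd was lost without bicuculline replicate 3 (-0.32), water replicate 1 (-0.46) or water replicate 3 (-0.44), and Gabra5 without bicuculline replicate 2 (0.27, edgeR adjusted p = 0.0527). Set against MM401 water at 4 h, a comparison added after the data were seen, none of the 6 was called (Gabra2 0.25, Gabra4 0.26, Gabra5 0.06, Gabrb2 0.13, Gabrb1 -0.04, Gabrd -0.26) and Gabra3 was called lower (-0.31, adjusted p = 0.0254). The length correction left Gabra2, Gabra4 and Gabra5 called and ended the calls of Gabrb2 (0.12), Gabrb1 (0.01) and Gabrd (-0.34). Plain library totals ended those of Gabra5 (0.11), Gabrb2 (0.09) and Gabrb1 (0.05), and both settings called Gabra3 lower (-0.19 and -0.20). With all 21 libraries Gabra2 (0.48, adjusted p = 0.0798), Gabrb1 (0.27) and Gabrb2 (0.31) were not called, and Gabrb1 was also lost in a fit of only the groups compared (0.27, adjusted p = 0.0502).

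At 4 h under MM401, bicuculline raised Gabra2, Gabrb2 and Gabra4 and lowered Gabra3. Gabra2 rose 1.87-fold, from 422 ± 9.31 (SD, n = 2) to 789 ± 82.5 CPM (n = 3), with a log2 fold change of 0.90 ± 0.13 (SE, edgeR adjusted p = 1.31e-05). Gabrb2 rose 1.47-fold (0.55 ± 0.10, adjusted p = 7.83e-05) and Gabra4 1.32-fold (0.40 ± 0.14, adjusted p = 0.0313). Gabra3 was lower, at 60.9 ± 3.07 against 76.6 ± 2.90 CPM, a log2 fold change of -0.33 ± 0.11 (adjusted p = 0.0154). With water at 1 h under MM401 Gabra3 had 61.4 ± 6.82 CPM (n = 3), close to its level with bicuculline at 4 h. The 4 calls of 7 compare with 44.6% of all tested genes, 23.0% higher and 21.7% lower. None of the 4 overlapped between the groups, as 66.6% of all tested genes did not. Gabrb1 (0.01, 95% interval -0.22 to 0.24), Gabra5 (-0.07, -0.28 to 0.15) and Gabrd (0.20, -0.17 to 0.56) were not called.

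Gabra2 and Gabrb2 held at 4 h under MM401 without each library in turn, at 0.85 to 0.99 and 0.51 to 0.59. Gabra4 was lost without bicuculline replicate 1 (0.34) or 2 (0.37) or water replicate 1 (0.40) or 2 (0.34). Gabra3 was lost without bicuculline replicate 3 (-0.29, edgeR adjusted p = 0.0567) or water replicate 1 (-0.31, adjusted p = 0.0984). With the left-out water library included Gabra3 moved to -0.61 (adjusted p = 0.0558).

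**Figure D2:**
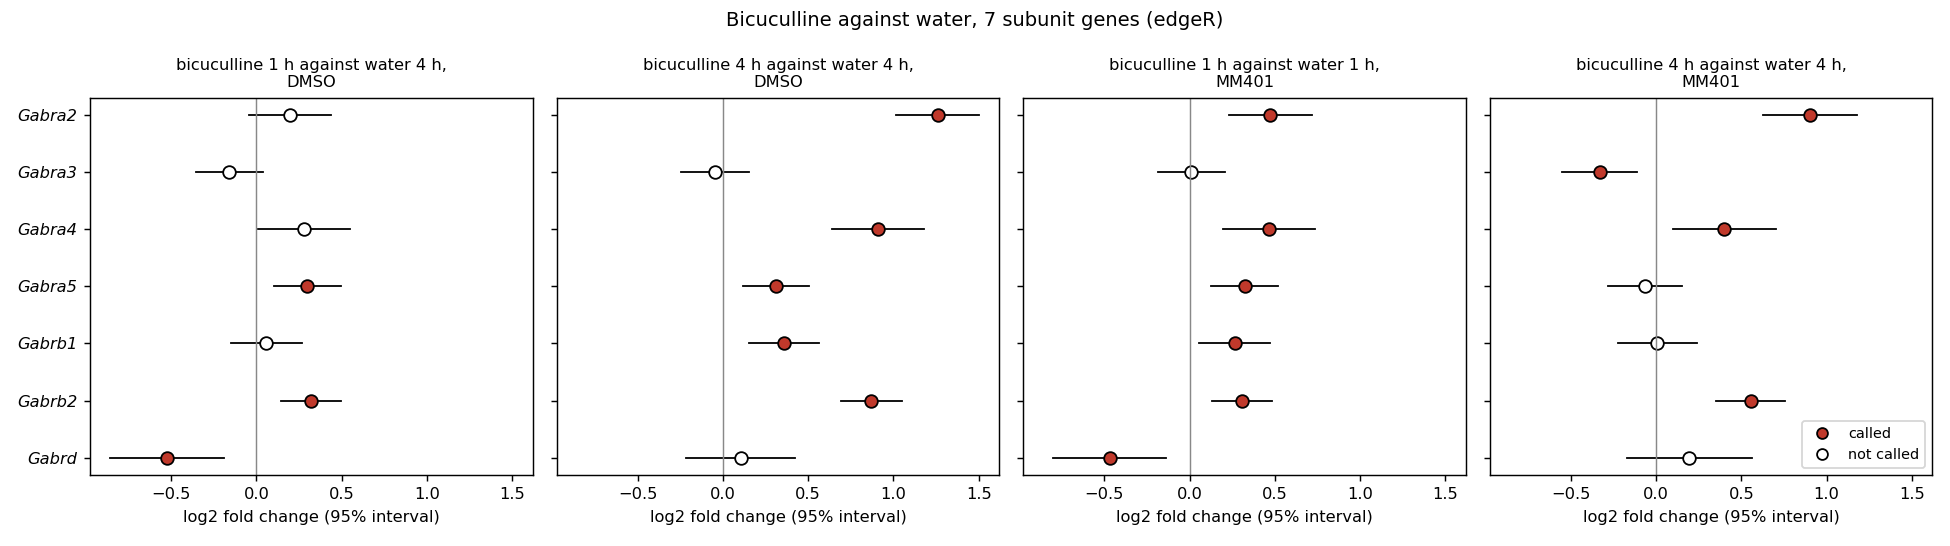
Log2 fold change of bicuculline against water (horizontal axes) for the 7 subunit genes in the 4 comparisons, with 95% intervals from edgeR and filled points where the adjusted p was under 0.05. Gabra2 reaches 1.26 at 4 h in DMSO and 0.90 under MM401, Gabra3 lies near 0 or below it, and Gabrd is below 0 at 1 h.

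The 4 h and 1 h bicuculline groups were compared directly within each pretreatment. In DMSO, 5 genes were higher at 4 h than at 1 h (34.2% of all tested genes called, 19.1% higher): Gabra2 2.09-fold (log2 fold change 1.06 ± 0.12 SE, edgeR adjusted p = 3.89e-07), Gabrd 1.55-fold (0.63 ± 0.16, adjusted p = 0.00368), Gabra4 1.55-fold (0.63 ± 0.13, adjusted p = 0.000787), Gabrb2 1.47-fold (0.55 ± 0.09, adjusted p = 2.42e-05) and Gabrb1 1.23-fold (0.30 ± 0.10, adjusted p = 0.0228). Gabra5 (0.01, 95% interval -0.18 to 0.20) and Gabra3 (0.11, -0.09 to 0.31) were not called. Under MM401, 3 were higher (33.6% of all genes called, 17.5% higher): Gabra2 1.58-fold (0.66 ± 0.12, adjusted p = 0.000149), Gabrd 1.37-fold (0.45 ± 0.16, adjusted p = 0.0339) and Gabrb2 1.35-fold (0.43 ± 0.09, adjusted p = 0.000425). Gabra4 gave 0.14 there, with an interval of -0.13 to 0.40. So Gabra2, Gabrb2 and Gabrd were higher at 4 h than at 1 h in both pretreatments. The times did not overlap for 6 genes in DMSO, all but Gabra5 (43.3% of all tested genes), and for Gabra2 and Gabrb2 under MM401 (45.1%). In DMSO the call of Gabrb1 was lost without any 1 of bicuculline 1 h replicates 1 (0.29), 2 (0.28) or 3 (0.29) or 4 h replicates 1 (0.30) or 2 (0.28). Under MM401 that of Gabrd was lost without 1 h replicate 2 (0.49) or 3 (0.28) or 4 h replicate 1 (0.39) or 2 (0.36), with the length correction (0.39), which called Gabrb1 higher (0.26), and in a fit of only the groups compared (0.43). With all 21 libraries Gabrb1 in DMSO (0.26) and Gabrb2 (0.40) and Gabrd (0.43) under MM401 were not called.

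MM401 was then compared with DMSO under the same treatment. No subunit gene was called in any of the 3 comparisons (water at 4 h, then bicuculline at 1 h, then bicuculline at 4 h) by edgeR, and none by DESeq2. Of all tested genes edgeR called 0.0826%, 0.00590% and 0% in these, or 14, 1 and 0 genes. DESeq2 called 162, 14 and 7, and 2194, 540 and 1309 genes had an unadjusted p under 0.05 by edgeR. In water at 4 h the 7 log2 fold changes lay between -0.07 (Gabrd) and 0.24 (Gabra5), and 1 gene, Gabra5, had an unadjusted p under 0.05 (adjusted p = 0.334). With bicuculline at 1 h they lay between -0.00360 (Gabra5) and 0.19 (Gabrd), and none had an unadjusted p under 0.05. MM401 and DMSO overlapped for all 7 genes in both of these comparisons, while 26.0% of all tested genes in water and 7.15% with bicuculline at 1 h did not overlap.

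With bicuculline at 4 h, 5 subunit genes lay lower under MM401 in every library than in any DMSO library, as 17.5% of all tested genes did in either direction, but none passed the adjusted test. Gabra4 was 237 ± 24.0 against 302 ± 14.0 CPM (SD, n = 3 each), a log2 fold change of -0.35 (95% interval -0.61 to -0.08, edgeR adjusted p = 0.639). Gabra2 was 789 ± 82.5 against 944 ± 73.5 CPM (-0.26, interval -0.50 to -0.02, adjusted p = 0.639) and Gabrb1 1299 ± 105 against 1505 ± 39.7 CPM (-0.21, interval -0.42 to -0.00463, adjusted p = 0.639). These 3 genes had an unadjusted p under 0.05. Gabra5 (-0.13, -0.33 to 0.06) and Gabra3 (-0.14, -0.33 to 0.06) also had no overlap, and Gabrb2 (-0.12, -0.30 to 0.06) and Gabrd (0.02, -0.30 to 0.34) overlapped. In water at 4 h the same 5 genes had positive values, so the difference of the responses was tested itself.

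The difference of the 4 h responses, MM401 minus DMSO, was negative for 6 of the 7 genes and called for none. It was -0.51 ± 0.19 for Gabra4 (SE, edgeR adjusted p = 0.253), -0.38 ± 0.14 for Gabra5 (adjusted p = 0.244), -0.36 ± 0.17 for Gabra2 (adjusted p = 0.336), -0.35 ± 0.15 for Gabrb1 (adjusted p = 0.283), -0.32 ± 0.13 for Gabrb2 (adjusted p = 0.269) and -0.28 ± 0.14 for Gabra3 (adjusted p = 0.35). Gabrd gave 0.09 ± 0.24 (adjusted p = 0.875). Of these, Gabra4, Gabra5, Gabrb1 and Gabrb2 had an unadjusted p under 0.05. No gene of the 16959 was called by edgeR, while 2552 had an unadjusted p under 0.05. DESeq2 called 436 genes, 434 of them lower and 2 higher, and Gabra4 was among the lower (-0.54, adjusted p = 0.0445).

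The calls for this difference turned on 1 library. Without DMSO water replicate 1, which had the highest CPM of its group in 6 of the 7 genes, the difference was called for those 6: Gabra4 (-0.68, edgeR adjusted p = 0.0162), Gabra5 (-0.53, adjusted p = 0.00654), Gabra2 (-0.52, adjusted p = 0.0321), Gabrb1 (-0.49, adjusted p = 0.0178), Gabra3 (-0.43, adjusted p = 0.0209) and Gabrb2 (-0.42, adjusted p = 0.0219). In that fit 9.15% of all genes were called, 1151 lower and 400 higher. Without each of the 10 other libraries of the 4 groups in turn, none of the 7 genes was called. Without the same library, MM401 against DMSO in water at 4 h had 3 subunit genes called higher (7.50% of all genes called): Gabra5 (0.39, adjusted p = 0.00778), Gabrb2 (0.30, adjusted p = 0.034) and Gabra3 (0.30, adjusted p = 0.039). The 2 MM401 water libraries at 4 h are the other side of both comparisons, and their share of counts in long genes was 61.3 to 61.4%. In DMSO with water it was 58.0% and 56.9% in replicates 2 and 3, which these fits kept, and 62.2% in replicate 1. In a fit added after the data were seen, which left out that library and also corrected for gene length, Gabra5 was the only 1 of the 7 genes called for the difference of the responses (-0.39, adjusted p = 0.0347), with 1.98% of all genes called. There Gabra4 was -0.56 (adjusted p = 0.0545), Gabra2 -0.34, Gabra3 -0.18, Gabrb2 -0.18 and Gabrb1 -0.13. In that fit Gabra5 was also the only 1 called for MM401 against DMSO in water (0.32, adjusted p = 0.0133, 4.79% of all genes called).

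**Figure D3:**
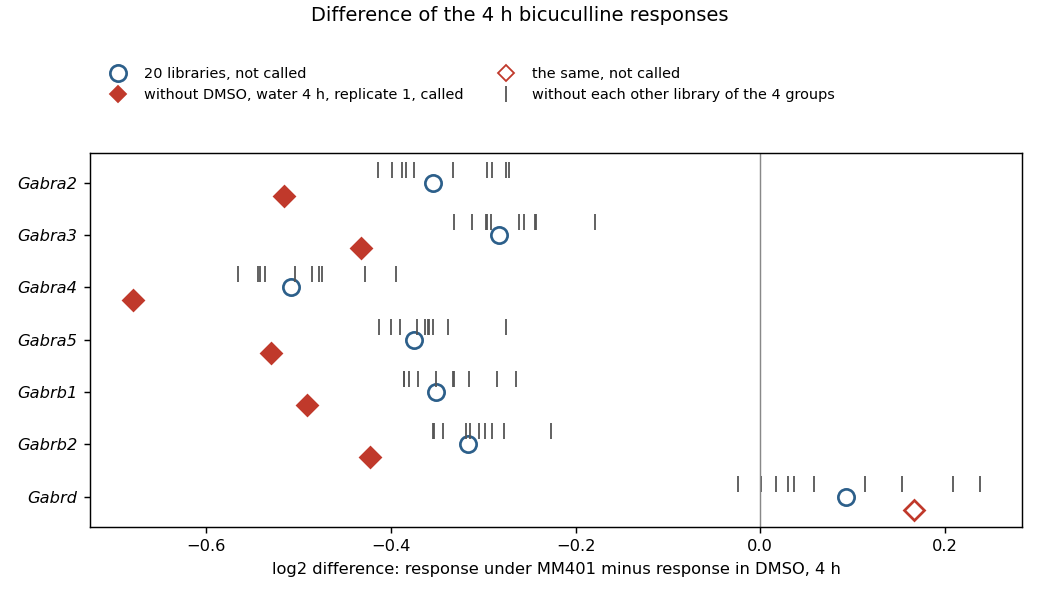
Difference of the 4 h bicuculline responses, MM401 minus DMSO, on the log2 scale (horizontal axis) for the 7 subunit genes. Circles use 20 libraries and are not called for any gene, diamonds leave out DMSO water replicate 1 and are called for 6 genes, and ticks leave out each other library of the 4 groups in turn.

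Water at 4 h against water at 1 h under MM401 shows how far the genes differed without bicuculline. None was called by edgeR or by DESeq2 (147 genes, 0.867% of all tested, called by edgeR, 275 by DESeq2 and 1699 at an unadjusted p under 0.05), although 6 genes had higher and 1 had lower CPM in both 4 h libraries than in all 3 at 1 h, as 31.9% of all tested genes did in either direction. Gabra3 gave 0.32 (95% interval 0.10 to 0.54, edgeR adjusted p = 0.203), Gabrb1 0.31 (0.08 to 0.54, adjusted p = 0.264) and Gabra5 0.27 (0.05 to 0.48, adjusted p = 0.331), and these 3 had an unadjusted p under 0.05. Gabra2 (0.23, -0.04 to 0.49), Gabra4 (0.20, -0.10 to 0.50), Gabrb2 (0.18, -0.01 to 0.38) and Gabrd (-0.21, -0.58 to 0.16) completed the set. For comparison, the 1 h bicuculline values in DMSO, whose control was water at 4 h, were 0.30 for Gabra5 and 0.32 for Gabrb2. For both genes the MM401 water control was higher at 4 h than at 1 h, and no 1 h water control in DMSO was analysed. With the length correction Gabrb1 was called in this comparison of controls (0.25, adjusted p = 0.0151).

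The makeup of the subunit signal was described as the share of each gene in the summed CPM per kb of the 16 subunit genes that passed the filter on low counts. This sum was 20.7 ± 3.36 CPM per kb in DMSO with water, 27.1 ± 1.05 at 1 h and 34.0 ± 1.60 at 4 h of bicuculline (SD, n = 3 each), and no test was made on it. The share of Gabra2 was 13.9% ± 0.59 in DMSO with water, 12.1% ± 0.91 at 1 h and 20.2% ± 0.95 at 4 h. Under MM401 it was 13.2% ± 0.23 in water at 4 h (n = 2) and 19.0% ± 0.98 with bicuculline at 4 h. Gabrb2 took 11.2% ± 0.38 in DMSO with water and 12.4% ± 0.02 at 4 h, and Gabra4 8.74% ± 0.33 and 10.03% ± 0.09. The shares of Gabrb1 (12.98% ± 0.17 to 10.1% ± 0.33), Gabra5 (5.18% ± 0.10 to 3.92% ± 0.11) and Gabra3 (1.49% ± 0.02 to 0.88% ± 0.04) were smaller at 4 h, where Gabrb1 and Gabra5 had higher CPM than in water and Gabra3 had 66.9 ± 1.79 against 69.2 ± 12.4 CPM.

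**Figure D4:**
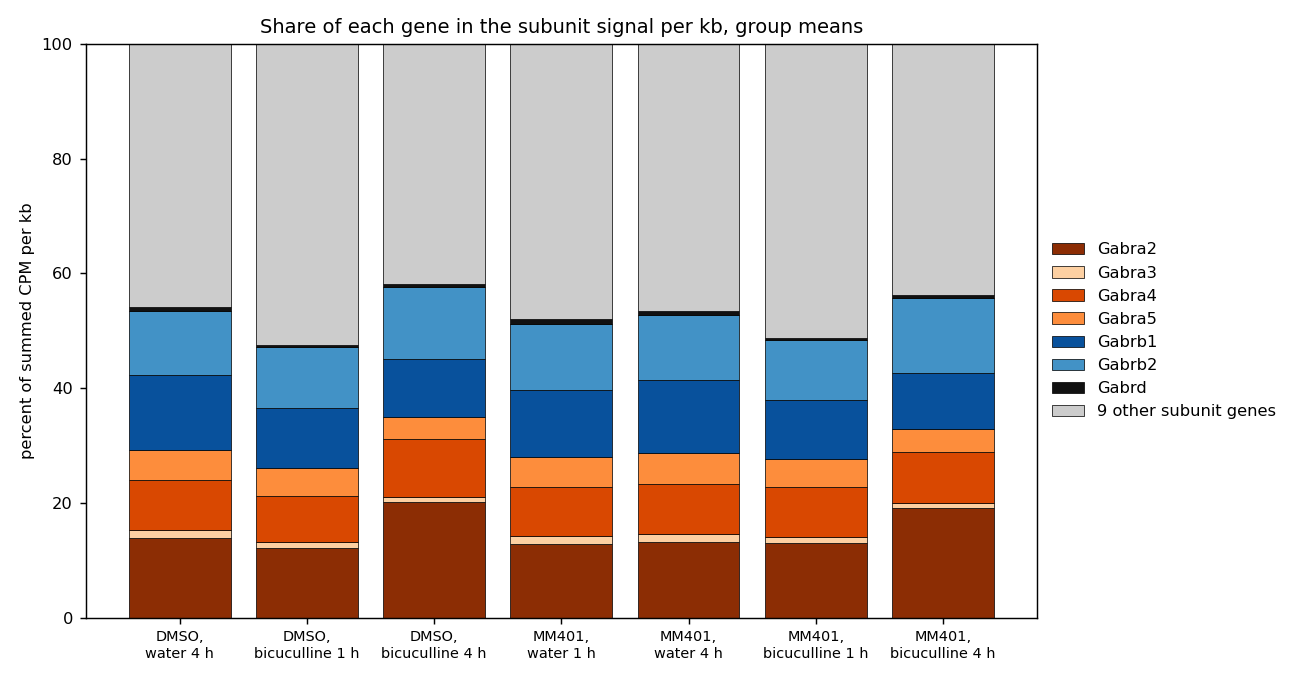
Share of each subunit gene in the summed CPM per kb of the 16 tested subunit genes (vertical axis, percent), as group means in stacked bars, with the 7 members coloured and the 9 other genes together in grey. Gabra2 has 13.9% in DMSO with water and 20.2% after 4 h of bicuculline.

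Among the 12 other subunit genes, 9 were tested, and Gabra6, Gabrp and Gabrr1 had too few counts. With bicuculline in DMSO, 6 of the 9 rose at 1 h and 5 at 4 h and none fell, where 3396 of 16959 tested genes rose and 24.5% fell at 1 h and 23.7% rose and 25.5% fell at 4 h. The log2 fold changes had medians of 0.54 and 0.72 over the list against -0.04 and -0.02 over all genes. Gabrg1, a γ subunit gene, rose 2.77-fold at 4 h (31.1 ± 1.93 to 86.1 ± 7.13 CPM, SD, n = 3 each, edgeR adjusted p = 6.47e-12). The ε subunit gene Gabre rose 2.42-fold at 1 h and 2.41-fold at 4 h, at levels of 0.57 ± 0.17 CPM in water and 1.36 ± 0.12 and 1.36 ± 0.36 CPM. Without DMSO water replicate 1 the counts were 7 at 1 h and 6 at 4 h, and with plain library totals 4 at 1 h and, at 4 h, 5 higher and 2 lower.

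Under MM401 5 of the 9 rose at each time, against 18.1% of all tested genes at 1 h and 23.0% at 4 h. At 1 h these included Gabrg1 (log2 fold change 1.07 ± 0.08 SE, edgeR adjusted p = 1.31e-09), which was 0.64 against water at 4 h, and at 4 h Gabrg1 (1.19 ± 0.10, adjusted p = 3.32e-09) and Gabre (1.17 ± 0.27, adjusted p = 0.0015). At 4 h 2 of the 9 fell, a share close to the 21.7% of all tested genes that were lower: Gabrg3 from 509.8 ± 12.7 to 322 ± 35.4 CPM (-0.66 ± 0.15, adjusted p = 0.00141), and the ρ subunit gene Gabrr2 from 1.03 ± 0.02 to 0.39 ± 0.13 CPM (-1.43 ± 0.28, adjusted p = 0.000284). In DMSO Gabrg3 gave -0.02 and Gabrr2 -0.34 at 4 h, neither called. The difference of the 4 h responses was called for none of the 9 genes by edgeR in the 20 libraries.

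The genes were also set by their place in the clusters. On chromosome 5, in the order of the genome, Gabrg1, Gabra2, Gabra4 and Gabrb1 gave 1.47, 1.26, 0.91 and 0.36 at 4 h in DMSO, all called higher. On chromosome 7 Gabrg3 (-0.02) was not called and its neighbour Gabra5 (0.31) was. On chromosome X Gabra3 (-0.05) lay between Gabre (1.27) and Gabrq (1.17), which were both called at about 0.57 to 4.31 CPM. These are fold changes of whole genes side by side, and no test of the clusters was made.

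**Figure D5:**
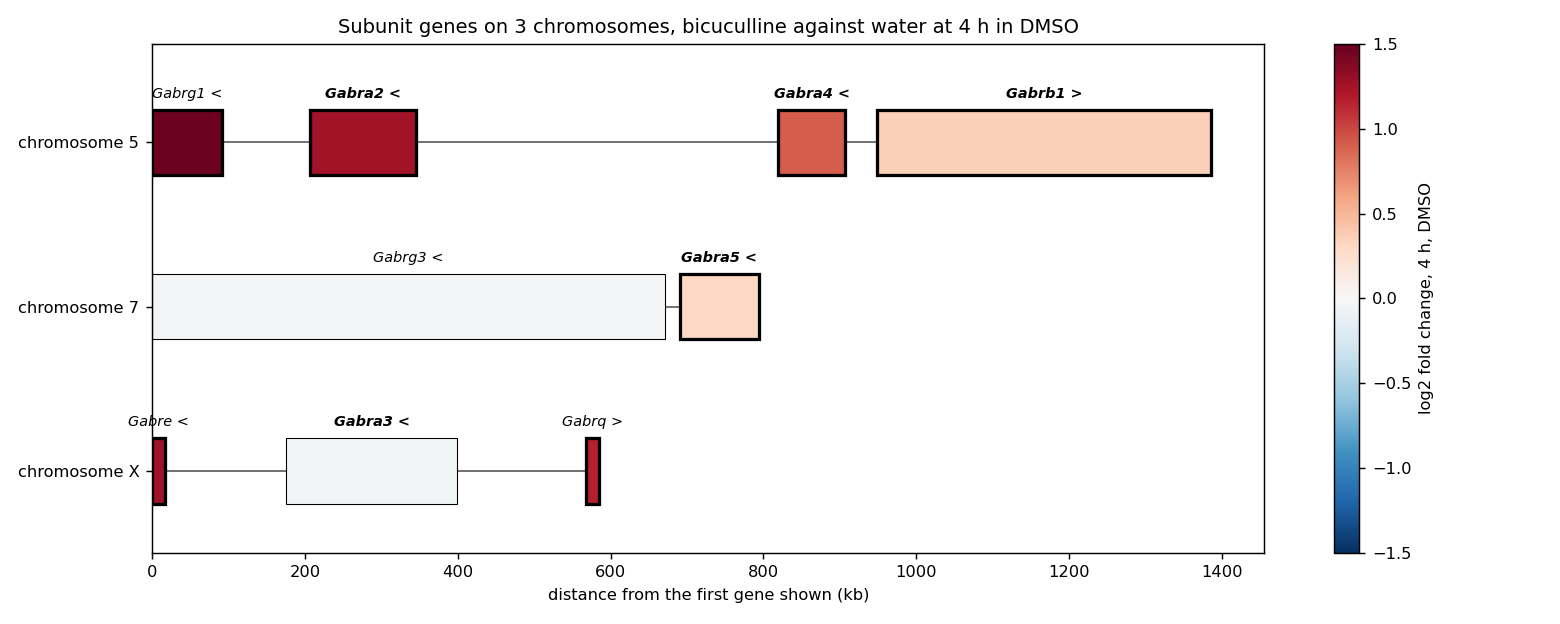
Position of 9 subunit genes on 3 chromosomes (horizontal axis, kb from the first gene shown on each), coloured by the log2 fold change of bicuculline against water at 4 h in DMSO, with thick outlines where called and < or > for the strand. The chromosome 5 genes run from 1.47 (Gabrg1) to 0.36 (Gabrb1), and Gabra3 lies near 0 between Gabre and Gabrq.

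Of 20 genes of the inhibitory synapse, 18 were in the table and tested. In DMSO 7 rose and 4 fell at 1 h, and 10 rose and 5 fell at 4 h (medians 0.18 and 0.27). Of all tested genes 44.6% were called at 1 h and 49.2% at 4 h. Without DMSO water replicate 1, 8 rose and 4 fell at 1 h and 9 and 5 at 4 h, and with all 21 libraries 4 rose and 4 fell at 1 h. Gphn, which encodes the scaffold gephyrin, rose 1.70-fold at 4 h (913 ± 131 to 1549 ± 78.5 CPM, SD, n = 3 each, edgeR adjusted p = 3.31e-06), and Iqsec3, an exchange factor at inhibitory synapses, also 1.70-fold (82.8 ± 2.86 to 141 ± 3.86 CPM). Trak1, a transport adaptor, and Plcl1, a binding partner of the receptor, rose at 1 h (0.52 ± 0.07 and 0.37 ± 0.10, SE). Insyn1, a gephyrin-associated protein, fell at 1 h (-0.71 ± 0.09) and at 4 h (-1.23 ± 0.09, adjusted p = 5.57e-10). Lhfpl4, an auxiliary subunit of the receptor, fell at 1 h (-0.47 ± 0.07), and Shisa7, another receptor-associated protein, at 4 h (-0.56 ± 0.11). With plain library totals the balance turned, to 2 higher and 7 lower at 1 h and 5 and 6 at 4 h, with Gphn at 0.50 and Iqsec3 at 0.49 at 4 h and Trak1 at 0.32 and Plcl1 at 0.19 at 1 h, all still called. With the length correction Trak1 at 1 h was 0.32 and Plcl1 was not called (0.13, adjusted p = 0.0679).

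Under MM401 8 of the 18 rose and 4 fell at each time, while 39.9% of all tested genes were called at 1 h and 44.6% at 4 h. At 1 h Trak1 (0.56 ± 0.07 SE) and Gabarapl1 (0.46 ± 0.09) had the largest rises and Insyn1 (-0.81 ± 0.09) and Lhfpl4 (-0.68 ± 0.07) the largest falls among genes without overlap. At 4 h these were Iqsec3 (0.73 ± 0.07) and Gphn (0.46 ± 0.12), and Insyn1 (-1.09 ± 0.10) and Shisa7 (-0.58 ± 0.12). The count of 8 at 1 h became 4 without bicuculline replicate 1 and 5 without bicuculline replicate 2 or water replicate 3, 11 without bicuculline replicate 3, and 4 with all 21 libraries or against water at 4 h. That at 4 h became 5 without water replicate 1. With plain library totals 2 rose and 4 fell at 1 h, Trak1 was 0.34, and Gabarapl1 was not called (0.25, edgeR adjusted p = 0.119).

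Of 15 genes for GABA synthesis, transport and the GABA-B receptor, 14 were tested. In DMSO 5 rose and 2 fell at 1 h, and 6 rose and 3 fell at 4 h (medians 0.13 and 0.14), where 44.6% and 49.2% of all tested genes were called. Without DMSO water replicate 1, 6 rose and 3 fell at 1 h and 6 and 4 at 4 h, and with all 21 libraries 3 rose and 1 fell at 1 h. The length correction left 5 higher and 4 lower at 1 h. Gad1 and Gad2, the GABA-synthesising enzymes, rose 1.83-fold and 1.45-fold at 1 h (149 ± 3.07 to 272 ± 26.0 CPM and 174 ± 6.74 to 252 ± 15.6 CPM, SD, n = 3 each). Kctd8 and Kctd16, auxiliary subunits of the GABA-B receptor, rose 2.24-fold and 2.21-fold at 4 h. Gabbr2, a subunit of that receptor, fell at 4 h (-0.65 ± 0.09 SE, edgeR adjusted p = 5.33e-06), as did the GABA transporter gene Slc6a11 (-0.60 ± 0.07). Aldh5a1, an enzyme of GABA breakdown, fell at 1 h (-0.44 ± 0.07). The count of 2 that fell at 1 h was 1 without DMSO water replicate 3. With plain library totals 3 rose and 4 fell at 1 h, and 5 and 6 at 4 h, and Gad2 at 1 h was 0.35 in place of 0.54.

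Under MM401 7 of the 14 rose and 1 fell at 1 h, and 6 rose and 2 fell at 4 h, against 39.9% and 44.6% of all tested genes called. With all 21 libraries 4 rose at 1 h. Gad1 rose at 1 h (1.03 ± 0.08 SE) with Kctd16 (0.62 ± 0.18), and Aldh5a1 fell (-0.24 ± 0.07). At 4 h Kctd12 (1.05 ± 0.10) and Gad2 (0.91 ± 0.07) rose, and Gabbr2 (-0.94 ± 0.10) and Slc6a11 (-0.46 ± 0.07) fell. Kctd16 at 1 h was lost without bicuculline replicate 2 (0.52, edgeR adjusted p = 0.0518), with all 21 libraries (0.63) and against water at 4 h (0.34), and Aldh5a1 without bicuculline replicate 2 (-0.20, adjusted p = 0.0621) or water replicate 3 (-0.19, adjusted p = 0.0588). With plain library totals 4 rose and 5 fell at 1 h, with Kctd16 at 0.41 and Aldh5a1 at -0.45. The length correction gave Kctd16 at 0.40.

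Marker sums moved with the treatment as well. The 8 GABAergic markers, of which Gad1 and Gad2 are also in the list above, summed to 345 to 375 CPM in DMSO with water, 523 to 599.8 at 1 h and 662 to 705 at 4 h of bicuculline. Gad1 (149 CPM in water and 267 at 4 h, means) and Gad2 (174 and 377) made up most of these sums and were the only 2 of the 7 tested markers called at 4 h, both higher, with a median log2 fold change of 0.28 over the 7. Excitatory markers (6 genes) summed to 495 to 629.9, 707 to 773 and 950.2 to 1053 CPM in the same groups, and the 5 neuronal markers to 4523 to 5673, 5525 to 5922 and 6693 to 7194 CPM. Of the 6 excitatory markers 3 were called higher and 1 lower at 4 h in DMSO. Of the 5 neuronal markers 3 were called higher and 2 lower at 4 h in DMSO. The 6 astrocyte markers summed to 459 to 692, 731 to 837 and 602 to 678 CPM, and none of the 6 was called at 4 h in DMSO. The 6 markers of the oligodendrocyte lineage summed to 131 to 151, 157 to 169 and 166 to 181 CPM, and 3 were called higher at 4 h. The 6 microglial markers summed to 31.3 to 37.1, 27.5 to 35.5 and 38.1 to 45.2 CPM in these DMSO groups, and 1 was called higher at 4 h. Under MM401 the sums of these glial markers did not overlap between bicuculline and water at 4 h. Astrocyte markers summed to 593 to 667 against 425 to 525 CPM (3 of 6 called higher), microglial markers to 42.8 to 46.8 against 29.4 to 34.1 CPM (4 of 6) and those of the oligodendrocyte lineage to 172 to 176 against 134 to 144 CPM (3 of 6). Markers of microglia (27.5 to 46.8 CPM) and of fibroblasts and pericytes (6.89 to 12.2 CPM) were low in all 20 libraries. The part of these sums in the subunit results was not tested.

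The genes whose levels ran most like each subunit over the 20 libraries were named by Pearson's r of log2 CPM, as a description. For Gabra2 these were Aff2 (r = 0.994) and Ralgapa1 (r = 0.992), for Gabrb2 Stxbp5 (r = 0.991) and Zfp804a (r = 0.989), and for Gabra4 Kctd16 (r = 0.983) and Usp25 (r = 0.981). Gabra5 ran most like Herc2 (r = 0.965) and Arl15 (r = 0.952), Gabrb1 like Trpc5 (r = 0.964) and Prr16 (r = 0.962), Gabra3 like Rit2 (r = 0.943) and Klf8 (r = 0.921), and Gabrd like Kcng3 (r = 0.855) and Zfp951 (r = 0.820). Among the members the closest pairs were Gabra2 with Gabrb2 (r = 0.974), Gabra2 with Gabra4 (r = 0.945) and Gabra4 with Gabrb2 (r = 0.938). Gabra3 with Gabra2 (r = 0.082) and with Gabrb2 (r = 0.069) ran least alike among pairs without Gabrd. All these values share the libraries, their groups and their scaling.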

How the data were processed

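The values used were whole-number read counts per gene that the authors deposited, in 1 table of 24984 genes for 21 libraries. Per the file headers, featureCounts summed reads over whole gene spans of mouse build mm10. Bowtie2, UMI-tools, deepTools and DESeq2 are also named in the submitters' processing notes; parameters, strand use and the annotation release were not given in the sources used here. Without strand, overlapping genes cannot be told apart.

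From these counts, genes were filtered (edgeR filterByExpr, minimum count 10, minimum total 15), which left 16959, and 20 libraries were fitted in 1 model of group means in R 4.3.3 with edgeR 4.0.16 (robust quasi-likelihood, TMM scaling). All 7 members passed the filter. All tests were two-sided, and p-values were adjusted by Benjamini-Hochberg over all tested genes and called under 0.05. Alternatives were DESeq2 1.42.0, plain library totals, no filter, all 21 libraries, only the groups compared, a replicate block, a correction for gene length (lowess span 0.3) and leaving out each library.

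The members and gene lists were chosen with earlier results of these data known. Besides the 7 members, up to 2 genes a direction were named from each list in each bicuculline comparison, those with the largest called fold change and no overlap of CPM. Some genes of these lists are not reported here by name, although the counts include them. For each member the 2 genes (mean of at least 5 CPM, prior count 2) with the highest r were named. No library pair agreed within sampling noise: chi-square per degree of freedom was 6.23 to 79.6. The deviations of same-numbered libraries correlated at over 0.1 in all 3 pairs in MM401 against DMSO with bicuculline at 4 h (0.15, 0.107 and 0.172). In every other comparison at least 1 pair was lower, with 0.166, 0.199 and 0.0898 for bicuculline at 4 h against 1 h in DMSO, and the meaning of a replicate number is not given in the sources used here. P-values measure the spread between these cultures.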

Additional observations from a re-analysis of the deposited data

Results flagged for a closer look

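The library left out of the 20-library fit, MM401 with water at 4 h, replicate 3, had a higher Gabra3 value than any other water library. It was left out for its depth: it had 0.503% of the median total and 12538 genes detected, against 18840 to 19277 in the 20 others. It had 100 counts of Gabra3, which is 316 CPM on its plain total (95% Poisson interval 257 to 384, counting error only), against 63.1 to 84.6 in the 8 other water libraries. In the same library Gabra2 had 67 counts (212 CPM, interval 164 to 269) and Gabrb2 95 (299.9 CPM, interval 243 to 367), both below the lowest of the 20 other libraries (361 and 496). Gabrb1 was at 1269 CPM (interval 1148 to 1399.5), within their range of 1083 to 1419. Gabra4 (119.97 CPM, interval 84.9 to 165) and Gabra5 (133 CPM, interval 95.6 to 179) had intervals that reached the range of the 20 others (from 155 and from 109), and Gabrd had 2 counts (6.31 CPM, interval 0.765 to 22.8).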

How the results depend on the processing

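The number of the 7 genes called changed with some settings, and the cause was not tested unless fewer libraries were used. With all 21 libraries it was 3 for bicuculline at 1 h under MM401 and 1 for bicuculline at 4 h against 1 h under MM401. With water at 4 h in place of 1 h, an alternative chosen after seeing the data, it was 1 at 1 h under MM401. With only the groups compared it was 3 at 4 h in DMSO, with DESeq2 it was 1 for the difference of the 4 h responses, and with the length correction it was 1 for water at 4 h against 1 h under MM401 (Gabrb1, 0.25, edgeR adjusted p = 0.0151). With the length correction and without DMSO water replicate 1, also chosen after seeing the data, it was 1 for the difference of the responses and 1 for MM401 against DMSO in water. Leaving out each library gave 1 to 5 for bicuculline at 1 h and 3 to 5 at 4 h in DMSO, 4 to 5 at 1 h and 2 to 3 at 4 h under MM401, 4 to 5 in DMSO and 2 to 3 under MM401 for 4 h against 1 h, 0 to 3 for MM401 against DMSO in water and 0 to 6 for the difference of the responses. At 1 h under MM401 it was 4 with the length correction and with plain totals. The filter on low counts changed no call of the 7 genes.

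The replicate block added 1 call, Gabra4 at 1 h in DMSO (0.30, edgeR adjusted p = 0.026), and changed no other call. Plain library totals moved the median of all genes to -0.23 and -0.30 in the 1 h and 4 h DMSO comparisons, -0.21 and -0.06 under MM401, 0.10 for 4 h against 1 h of bicuculline under MM401, -0.10 and 0.11 for MM401 against DMSO in water and with bicuculline at 4 h, and 0.23 for the difference of the responses. The share of called genes that were higher at 4 h in DMSO was 48.1% with TMM and 18.8% with plain totals. At 1 h it was 44.9% and 21.2% in DMSO and 45.4% and 16.3% under MM401.

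Values that changed sign were all uncalled with the settings of the report, except Gabrb1 at 1 h under MM401 (-0.041 with water at 4 h as the control). For MM401 against DMSO with bicuculline at 1 h, Gabrb1 gave -0.022 with the length correction and -0.013 with plain totals, and Gabrb2 gave -0.0031 with DESeq2, -0.013 with all 21 libraries, -0.038 with the length correction, -0.0090 with only the groups compared and -0.050 with plain totals. With bicuculline at 4 h Gabrd gave -0.026 with the length correction. In water at 4 h Gabra2 gave -0.12 and Gabrb2 -0.032 with all 21 libraries, and Gabrd 0.00020 with the length correction. At 1 h under MM401 Gabra3 gave -0.19 with the length correction, -0.20 with plain totals and -0.31 with water at 4 h. At 1 h in DMSO Gabrb1 gave -0.19 with the length correction and -0.12 with plain totals. For 4 h against 1 h, Gabra5 in DMSO gave -0.0069 with DESeq2, -0.032 with all 21 libraries, -0.023 with the length correction, -0.021 with only the groups compared and -0.072 with plain totals, and Gabra3 under MM401 0.12 with the length correction and 0.059 with plain totals. At 4 h Gabrd in DMSO gave -0.18 with plain totals, and Gabrb1 under MM401 -0.0019 with DESeq2, -0.014 with only the groups compared and -0.071 with plain totals. The difference of the responses for Gabrd was -0.027 with the length correction, and Gabrb2 in water at 4 h against 1 h was -0.047 with all 21 libraries.

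Leaving out each library, these values spanned 0: MM401 against DMSO with bicuculline at 1 h for Gabra3 (-0.058 to 0.038), Gabra5 (-0.057 to 0.059), Gabrb1 (-0.0084 to 0.087) and Gabrb2 (-0.062 to 0.032), at 4 h for Gabrd (-0.072 to 0.17) and in water for Gabrd (-0.19 to 0.044); bicuculline at 1 h for Gabra3 under MM401 (-0.044 to 0.11) and Gabrb1 in DMSO (-0.011 to 0.20); 4 h against 1 h for Gabra5 in DMSO (-0.017 to 0.026) and Gabra3 (-0.11 to 0.035), Gabra4 (-0.026 to 0.22) and Gabrb1 (-0.043 to 0.11) under MM401; bicuculline at 4 h for Gabra3 in DMSO (-0.18 to 0.10) and Gabrb1 under MM401 (-0.044 to 0.073); and the difference of the responses for Gabrd (-0.024 to 0.24). Depth limits Gabrd, at 64 to 185 counts a library.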
